A study of Mus musculus with 8 samples.

Results

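The terminal complement components are the plasma proteins that build the membrane attack complex, and 6 of their genes were examined in mouse liver, Hc, C6, C8a, C8b, C8g and C9. Members were taken by gene symbol from the 11784 genes of the deposited table, and all 6 were found. The set was proposed because C9 was already known to be clearly lower on the Low AA diet in these mice, so the values that compare diets for these genes are given as a description, and nothing is read from whether a member passed a test of this contrast. Livers came from 4 C57BL/6J mice fed the Control diet (TD.140711) and 4 fed the Low AA diet (TD.140712), amino acid defined diets of which the latter holds less amino acid and more carbohydrate. All 8 were male inbred mice switched to the diets at 9 weeks of age, kept on them for about 4 months and killed after an overnight fast of about 16 hours. C57BL/6J carries a functional Hc gene, which some other inbred strains lack. Values are read counts of stranded poly(A) RNA libraries that had been scaled between mice and rounded, and are called scaled read counts.

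The complement cascade is a chain of plasma proteins, most of them secreted by hepatocytes, that marks and kills microbes. Its classical, lectin and alternative arms converge on cleavage of C3 and then of C5, the product of Hc. The larger fragment of C5 binds C6, C7 and C8 in turn, C8 being made of an alpha, a beta and a gamma chain from separate genes, and many copies of C9 then join to form a pore in the target membrane. C6, C7, C8 alpha, C8 beta and C9 belong to one protein family with a shared pore-forming domain, while C5 is related to C3 and C8 gamma is a small lipocalin.

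Gene positions come from GENCODE on GRCm38, the assembly called mm10 in the submitters' notes. C9 lies on chromosome 15 from 6445327 to 6498751 on the plus strand, and C6 on the same chromosome and strand from 4727175 to 4814967. C8b (chromosome 4, 104766317 to 104804548) and C8a (chromosome 4, 104815679 to 104876398) are neighbours on opposite strands. Hc (34983331 to 35061438) and C8g (25498651 to 25501719) lie on the minus strand of chromosome 2. The start-site regions of C9 and C6, the 2 members with separate values on the diets, and of C8a, the only member with a STAT motif, are printed here. Each run holds 250 bases before and 10 bases from a RefSeq start site (GRCm38.p6), 5′ to 3′ on the gene's own strand, and capitals mark matches to the motifs named in the next paragraph. Those in C9 and C6 match on the opposite strand, so that their capitals spell the reverse complement of the motif. The runs are chr15:6445096-6445355 (plus strand), chr15:4726960-4727219 (plus strand) and chr4:104876389-104876648 (minus strand). In RefSeq the gene C6 begins at 4727067 and C8a at 104876487, so part of each of these 2 runs lies inside the annotated gene.
C9: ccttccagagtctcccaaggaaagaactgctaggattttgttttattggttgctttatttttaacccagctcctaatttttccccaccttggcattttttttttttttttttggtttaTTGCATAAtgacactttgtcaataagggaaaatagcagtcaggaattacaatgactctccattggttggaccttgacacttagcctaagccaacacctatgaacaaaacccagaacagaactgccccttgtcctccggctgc
C6: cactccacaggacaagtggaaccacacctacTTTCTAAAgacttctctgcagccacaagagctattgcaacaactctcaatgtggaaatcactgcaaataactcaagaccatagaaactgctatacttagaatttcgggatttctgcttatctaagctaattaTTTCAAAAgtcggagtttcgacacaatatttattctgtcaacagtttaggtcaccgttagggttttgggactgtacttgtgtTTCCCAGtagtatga
C8a: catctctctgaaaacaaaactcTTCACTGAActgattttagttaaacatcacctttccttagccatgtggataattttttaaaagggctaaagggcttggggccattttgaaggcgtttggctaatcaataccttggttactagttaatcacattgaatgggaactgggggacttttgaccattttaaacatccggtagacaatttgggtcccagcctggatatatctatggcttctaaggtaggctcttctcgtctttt

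For the 6 members 7 RefSeq start sites were used, with a second one for C8g. In windows of 300 bases, 250 before and 50 from the start, 8 motifs were searched on both strands. The RefSeq genes of Hc, C6, C8a and C8g begin upstream of the sites used, that of Hc at 35068506. Distances are given from the sites used. The C/EBP core TTNNGNAA was found in the windows of C9, C6, C8b and Hc, and in 40.7% of all 32851 windows. In C9 it began 132 bases before the start site, and C6 held it at 219 and 87 bases before the start. The type II interleukin 6 response element CTGGGAA was found in C6 alone among the members, across the start site, and in 11.1% of all windows. The STAT palindrome TTCNNNGAA was found in C8a alone, 228 bases before the start, and in 8.3% of all windows. A TATA box, TATAAA, was found in Hc, 239 bases before the start, and in 13.6% of all windows. The HNF1 palindrome (GTTAAT and ATTAAC 1 base apart), the HNF4 repeat (AGGTCA and AGGTCA 1 base apart), the NF-kappaB motif (GGG and TTTCC 2 bases apart) and the glucocorticoid response element (GNACA and TGTNC 3 bases apart) were in none of the 7 windows, and in 0.00913%, 0.0396%, 1.63% and 0.475% of all windows. No match overlapped that of another motif. These are matches of letters only, and a missing match says only that the letters are not in the window.

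C9, which polymerizes into the wall of the pore, was lower in every Low AA mouse than in any Control mouse. Its scaled read counts were 9330 in Control mouse F129, 5922 in F2212, 7258 in F7111 and 4611 in F2110, and 2267 in Low AA mouse H1126, 1070 in H828, 2114 in H817 and 1877 in H1315. The diets lay far apart, and H828 was the lowest of the 8 mice. The mean was 1832 ± 533 for Low AA and 6780 ± 2014 for Control (SD, n = 4 each), so that the Low AA mean was 27.0% of the Control mean. On the scale of log2(value + 1) the difference was -1.90 (standard error 0.26), Low AA minus Control, and only 19 of the 11784 genes had a more negative one.

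C6, which binds the C5 fragment and starts assembly of the complex, was the other member without overlap between the diets. Its scaled read counts were 8801 in Control mouse F129, 4644 in F2212, 7443 in F7111 and 5165 in F2110, and 2672 in Low AA mouse H1126, 3159 in H828, 3052 in H817 and 3032 in H1315. The 4 Low AA mice lay close together, with a coefficient of variation of 7.12%, against 29.9% in the Control mice. The means were 2979 ± 212 and 6513 ± 1950 (SD, n = 4 each), with the Low AA mean at 45.7% of the Control mean. The difference on the log2 scale was -1.08 (standard error 0.19).

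The 3 chains of C8 differed less. C8a, the alpha chain, which inserts first into the membrane, had scaled read counts of 13197, 12727, 12018 and 9122 in Control mice F129, F2212, F7111 and F2110, and of 9329, 8472, 10259 and 9309 in Low AA mice H1126, H828, H817 and H1315. Control mouse F2110 lay among the Low AA mice, and the other 3 Control mice lay above all of them, with a log2 difference of -0.32 (standard error 0.13).
C8b, the beta chain that docks C8 onto the growing complex, had 10513, 6505, 7885 and 6085 in the Control mice and 5390, 7265, 7297 and 7455 in the Low AA mice, in the same order of mice. The diets overlapped, F129 being far above and H1126 below the rest, and the log2 difference was -0.16 (standard error 0.18). It was 0.00 without F129, -0.26 without F2110 and -0.04 without H1126. C8g, the lipocalin chain, had 7845, 9029, 7127 and 6488 in the Control mice and 6455, 6131, 6528 and 7985 in the Low AA mice. The diets overlapped here too, with H1315 above the Low AA mice and within the Control range, and the log2 difference was -0.17 (standard error 0.13), or -0.08 without F2212.

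Hc, whose product C5 feeds the whole terminal pathway, was the most abundant member in scaled read counts and one of the least different. It had 19795, 19445, 24948 and 17364 in Control mice F129, F2212, F7111 and F2110, and 18836, 17296, 16784 and 16949 in Low AA mice H1126, H828, H817 and H1315. The diets overlapped, and the log2 difference was -0.21 (standard error 0.12), or -0.11 without F7111, the highest mouse. C7, the component between C6 and C8, is not a member of the set but was listed in the table. It had 18 to 40 scaled read counts in the Low AA mice and 25 to 68 in the Control mice, far below every other component, and a log2 difference of -0.41 (standard error 0.34).

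**Figure D1:**
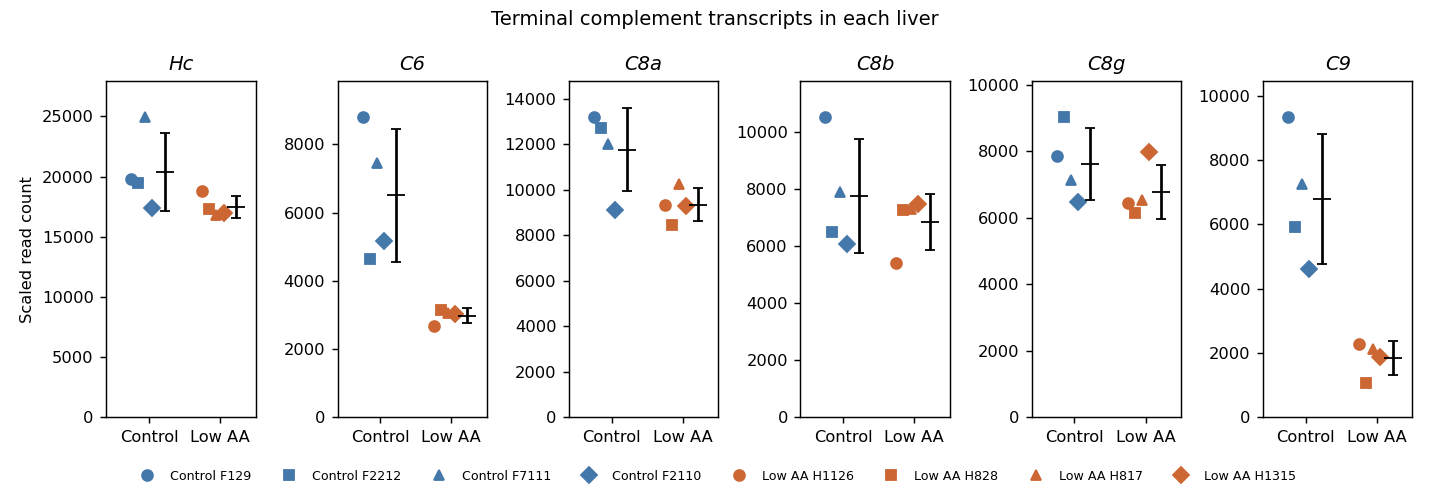
Scaled read counts of the 6 members (vertical axes, each from 0) in 4 Control mice (blue) and 4 Low AA mice (orange), with the mean and SD of each diet in black and 1 symbol for each mouse. C9 and C6 had no overlap between diets, with the Low AA mice at 1070 to 2267 and at 2672 to 3159, while the other members overlapped.

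All 6 members had a mean below Control on the Low AA diet and a log2 difference below 0, beside 49.5% of all genes below 0. In the limma fit across all genes, 2 of the 6, C9 and C6, passed an adjusted p under 0.05 toward lower values, beside 0.297% of all genes tested, and 0 toward higher values, beside 0.102%. The same 2 had no overlap between diets, both toward lower values, beside 3.55% of all genes lower, 3.26% higher and 6.81% in either direction. C6 did not pass in 9 of 15 alternative settings, 7 of them among the 8 that left out a mouse. Since this contrast chose the set, nothing is read from these counts. The median log2 difference of the members was -0.27, that of all genes 0.00. In whole tissue, a lower value can come from fewer cells that express a gene or from less RNA in each, and these cannot be told apart.

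Between genes, levels were compared as scaled reads per kilobase of the longest coding transcript in GENCODE. On this scale C8g was the most abundant member with either diet, at 6628 ± 947 in Control and 5891 ± 717 in Low AA mice (SD, n = 4 each), above the next member in every mouse and without overlap of the ranges. On the Control diet Hc (3744 ± 592), C8b (3460 ± 892), C9 (3311 ± 984) and C8a (3253 ± 505) followed, and each of these overlapped its neighbour in the order. C6 was the lowest at 2265 ± 678, below C8a in every Control mouse, though the ranges overlapped across mice. On the Low AA diet Hc (3208 ± 172), C8b (3060 ± 437) and C8a (2583 ± 202) also overlapped their neighbours in the order of the means. Hc was above C8b in only 1 of the 4 Low AA mice, against 3 of the 4 Control mice. C6 (1036 ± 73.7) and C9 (895 ± 260) lay below C8a in every Low AA mouse without overlap of the ranges, and overlapped each other, C6 being the higher of the 2 in 3 of the 4 mice.

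The make-up of the set was described by the share of each member. C9 made up 17.2%, 12.9%, 14.9% and 12.4% of the summed level per kilobase of the 6 members in Control mice F129, F2212, F7111 and F2110, and 6.88%, 3.32%, 6.09% and 5.11% in Low AA mice H1126, H828, H817 and H1315. The share of C6 ran from 7.22% to 11.6% in the Control mice and from 5.77% to 6.99% in the Low AA mice. The level of C9 per kilobase was 0.822 to 1.25 times that of C8a in the Control mice and 0.223 to 0.429 times in the Low AA mice. Against C6, C9 stood at 1.25 to 1.79 times in the Control mice and at 0.476 to 1.19 times in the Low AA mice, with H1126 the only Low AA mouse in which C9 was the higher of the pair.

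The spread of the members among mice of the same diet does not use the contrast between diets. It was examined as deviations on the log2 scale from the mean of each diet, over all 8 mice, which share their library and scaling for all genes. Of the 15 pairs of members, 13 had a positive Pearson r and 2 a negative one, from -0.12 for C6 and C8g to 0.89 for C6 and C8b, with a median of 0.39. C6 and C8b, the pair with the highest r, were both highest in F129 among the Control mice and lowest in H1126 among the Low AA mice. In Low AA mice H828, H817 and H1315 the 2 genes ran in opposite order. C6 had 3159, 3052 and 3032 scaled read counts there, and C8b 7265, 7297 and 7455. C8a and C9 followed with r = 0.75. C9 and C6, the 2 members without overlap between diets, had r = 0.44, with the mice in a like order on the Control diet and not on the Low AA diet, where H1126 was the highest for C9 and the lowest for C6. Taken by diet, some pairs differed in sign. For Hc and C8b, r was -0.97 in the Low AA mice and 0.36 in the Control mice. In the same order it was -0.89 and 0.51 for Hc and C6, and -0.68 and 0.87 for C6 and C9. Other pairs were alike on both diets, with 0.95 and 0.93 for C6 and C8b and 0.82 and 0.83 for C8a and C9. With 4 mice a diet these values describe these mice only.

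**Figure D2:**
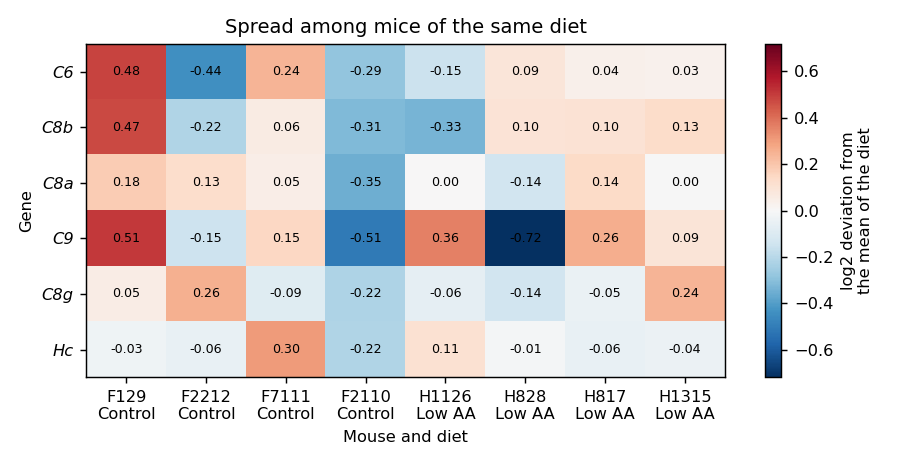
Deviation of each mouse (columns, with its diet) from the mean of its diet for the 6 members (rows), in log2 units, red above and blue below the mean. Control mouse F129 was above the mean of its diet for C6, C8b and C9 (0.48, 0.47 and 0.51), and Low AA mouse H828 was farthest below for C9 (-0.72).

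Several mice stood out in single members. Control mouse F2110 was the lowest Control mouse for Hc, C8a, C8b, C8g and C9, but not for C6, where F2212 was lower. Control mouse F2212 was far from the other mice in Saa1, an acute-phase protein, with 57733 scaled read counts against 68 to 2818 in the other mice, and in Cela1, an elastase of the exocrine pancreas, with 36587 against 130 to 288. Its members did not stand apart in the same way, with C9 and C8b within the range of the other Control mice and C8g the highest and C6 the lowest of the Control mice. Without F2212 the log2 difference of C9 was -1.94 and that of C6 was -1.23. After the scaling, totals were 27876664 to 30799385 scaled read counts and medians over genes 433.0 to 449.0, which says nothing of the sequencing depth before it.

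C6 and C9 lie 1.72 Mb apart on chromosome 15, with C7 between them, and the genes around them were looked at because the members share this position. Within 1 Mb on either side of the C6 to C9 interval, 15 of the genes that RefSeq lists were in the table, 13 of them not members. Of these 13, 0 passed an adjusted p under 0.05 in limma and 2 had an unadjusted p under 0.05, beside 0.399% and 11.8% of all genes in either direction. Their log2 differences ran from -0.41 for C7 to 0.41 for Dab2, an endocytic adaptor that lies next to C9, with a median of 0.00. Osmr, the oncostatin M receptor, was the only one of the 13 without overlap toward lower values (log2 difference -0.33, limma adjusted p = 0.397), beside 3.55% of all genes. Around C8b and C8a on chromosome 4, the 3 other listed genes within 1 Mb had log2 differences from -0.18 to 0.25, and 0 passed in limma, with 0 at an unadjusted p under 0.05. Around C8g and Hc, 0 of 44 and 0 of 17 other genes passed in limma, with 2 at an unadjusted p under 0.05 around each, and the lowest was Gsn, the actin-severing protein gelsolin, near Hc (log2 difference -0.97, limma adjusted p = 0.124).

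**Figure D3:**
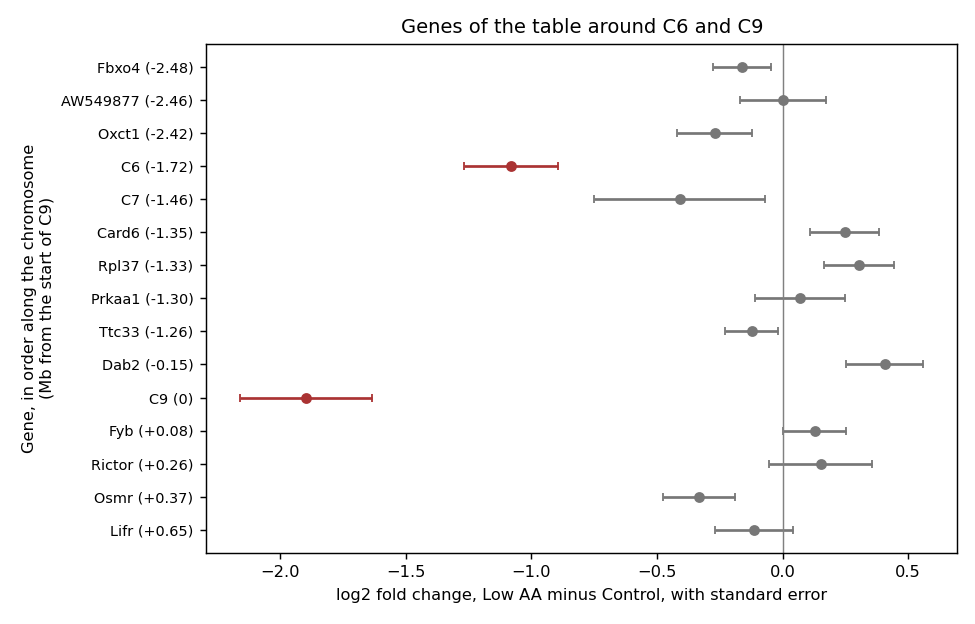
Log2 fold change with its standard error (horizontal axis, Low AA minus Control) for the 15 genes of the table around C6 and C9, in order along the chromosome with the distance from the start of C9 in Mb. C6 and C9 (red) were at -1.08 and -1.90, and the other 13 genes (grey) lay between -0.41 and 0.41.

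The rest of the cascade was taken from lists by role. Of 44 other complement genes listed, 35 were in the table, and 0 of the 35 passed an adjusted p under 0.05 in limma in either direction, beside 0.399% of all genes. At an unadjusted p under 0.05 there were 2 higher and 5 lower, beside 5.13% and 6.70% of all genes. Without overlap between diets there were 0 higher and 2 lower, C4a and C1rl, beside 3.26% and 3.55% of all genes. C1rl had 3697 to 4584 scaled read counts in Low AA and 4643 to 5060 in Control mice. The median log2 difference of the 35 was 0.04, and 34 of them were within 0.5 of 0, beside 10968 of the 11784 genes.

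In the classical and lectin arms, 0 of 16 genes in the table passed in limma, beside 0.399% of all genes. At an unadjusted p under 0.05, 2 were higher and 3 lower, beside 5.13% and 6.70% of all genes. The lowest was C4a, a close relative of C4b, with 142 ± 43.5 scaled reads in Low AA and 258 ± 53.8 in Control mice (SD, n = 4 each) and a log2 difference of -0.89 (limma adjusted p = 0.146). Its reads cannot be told apart with certainty from those of the near-identical and far more abundant C4b. The highest was Fcna, ficolin A, a lectin made by macrophages, with 1700 ± 136 and 1356 ± 217 in Low AA and Control mice (SD, n = 4 each) and a log2 difference of 0.34 (limma adjusted p = 0.310).
C3, the protein on which all arms converge, was the most abundant complement transcript on the list of C3 and the alternative pathway, with 230328 ± 15279 in Low AA and 193612 ± 38372 in Control mice (SD, n = 4 each) and a log2 difference of 0.27 (limma adjusted p = 0.569). The members of that list ranged from 0.05 for Cfb, factor B, to 0.30 for Cfp, properdin. Of the 3, 0 passed in limma, with 0 at an unadjusted p under 0.05, beside 0.399% and 11.8% of all genes.

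Among the regulators in plasma, 0 of 7 passed in limma, beside 0.399% of all genes. Of these 7, 0 were higher and 2 lower at an unadjusted p under 0.05, beside 5.13% and 6.70% of all genes. The lowest was Serping1, the inhibitor of the C1 proteases, at a log2 difference of -0.35 (limma adjusted p = 0.381), and the highest was C4bp, the C4 binding protein, at 0.14. Vtn and Clu, vitronectin and clusterin, bind the forming attack complex and keep it out of membranes, and Vtn had a log2 difference of -0.04 (limma adjusted p = 0.949) and Clu one of -0.30 (limma adjusted p = 0.420), the latter with 32266 ± 3920 scaled reads in Low AA and 39676 ± 5361 in Control mice (SD, n = 4 each).
On cell membranes, Cd59a, which blocks the joining of C9, had a log2 difference of -0.22 and Cd55, which breaks up C3 convertases, one of 0.17. Of the 3 membrane regulators in the table, 0 passed in limma, with 0 at an unadjusted p under 0.05, beside 0.399% and 11.8% of all genes. Of the 6 receptors in the table, 0 passed, with 0 at an unadjusted p under 0.05, beside the same shares. They ranged from -0.04 for Gpr77, now called C5ar2, to 0.43 for C5ar1, the 2 receptors for the C5a fragment released from C5.

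**Figure D4:**
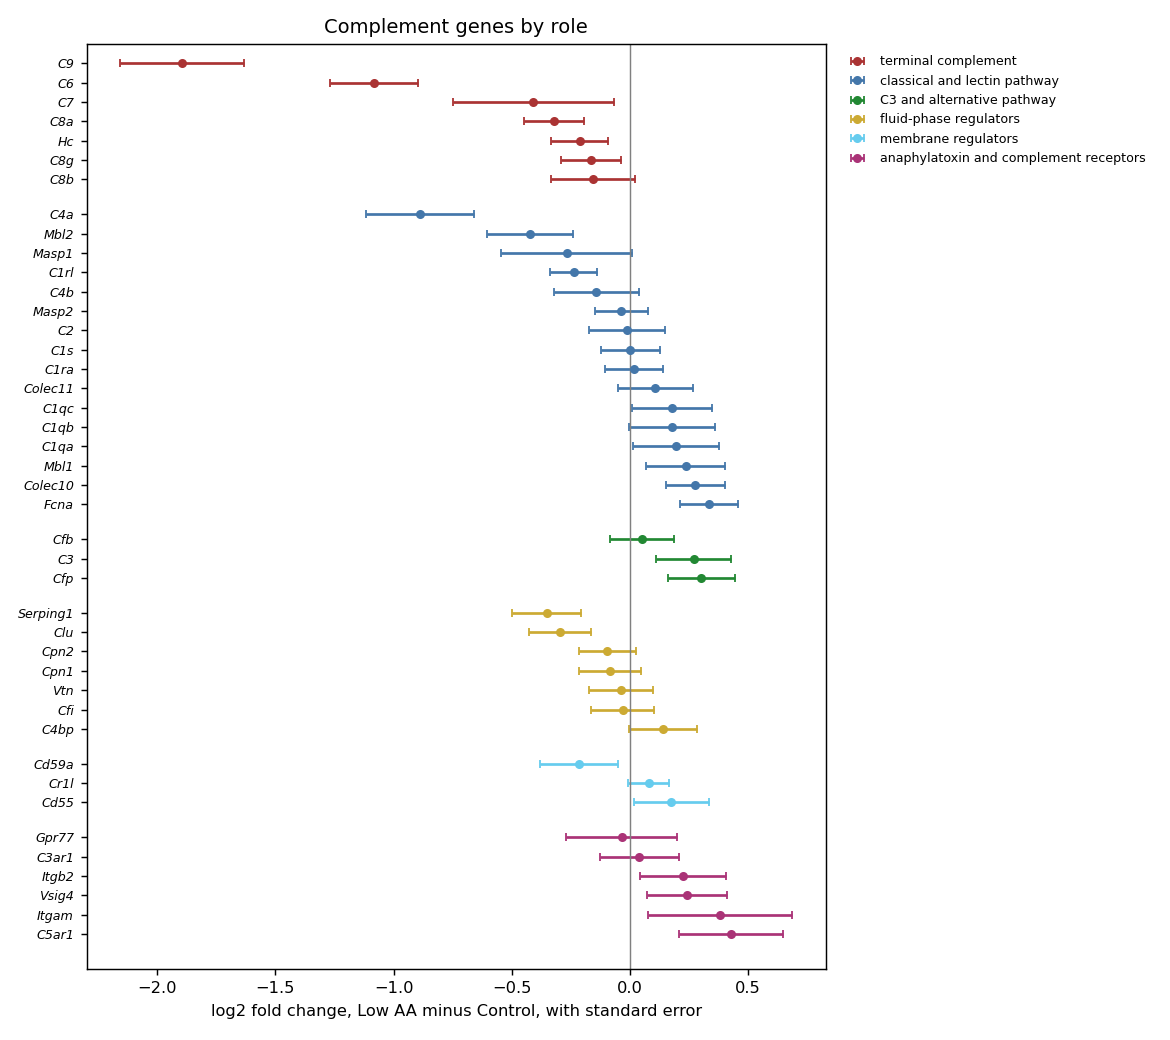
Log2 fold change with its standard error (horizontal axis, Low AA minus Control) for the listed complement genes found in the table, grouped by role and ordered by value within each role. C9 and C6 stood at -1.90 and -1.08, and apart from C4a at -0.89 the genes of the other roles lay between -0.42 and 0.43.

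Acute-phase proteins, which hepatocytes secrete in inflammation, were taken as a second list because they are made by the same cells. Of the 24 in the table, 0 passed in limma, beside 0.399% of all genes, and 2 were higher and 3 lower at an unadjusted p under 0.05, beside 5.13% and 6.70%. The median log2 difference was -0.14, and without overlap between diets there were 3 lower and 1 higher, beside 3.55% and 3.26% of all genes. Orm1, orosomucoid, had no overlap between diets, with 11372, 16131, 9665 and 8111 scaled read counts in Control mice F129, F2212, F7111 and F2110 and 2598, 955, 3274 and 5794 in Low AA mice H1126, H828, H817 and H1315, a log2 difference of -2.06 (limma adjusted p = 0.0908). Saa1 also had no overlap, at 1068 to 57733 in Control and 68 to 770 in Low AA mice (log2 difference -3.49, limma adjusted p = 0.261), and so had Saa4, a constitutive serum amyloid A, at 1695 to 4254 in Control and 901 to 1515 in Low AA mice (log2 difference -1.29, limma adjusted p = 0.0915). Cp, the copper carrier ceruloplasmin, was without overlap the other way, at 27686 to 34657 in Control and 34665 to 37088 in Low AA mice (log2 difference 0.26, limma adjusted p = 0.347). Saa2 overlapped, at 159 to 32724 in Control and 21 to 312 in Low AA mice (log2 difference -2.86, limma adjusted p = 0.503). Low AA mouse H828, the lowest for C9, was also the lowest of the 8 mice for Saa1, Saa2 and Orm1. The Control mice did not run in the same order. F129, the highest for C9, was the lowest Control mouse for Saa1 and Saa2, with 1068 and 159. F2212, the highest for Saa1, Saa2 and Orm1, lay within the range of the other Control mice for C9, with 5922. The highest log2 difference of the list was 1.03 for Apcs, serum amyloid P (limma adjusted p = 0.192). In single fits that left out a mouse, 1 gene of the list passed without F2212 (Apcs), without F2110 (Saa4) and without H1315 (Orm1). The part of these levels in those of C9 and C6 was not tested.

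Of the receptors, kinases and transcription factors that act on liver secretory genes, 23 of 23 were in the table. Of these 0 passed in limma, beside 0.399% of all genes. At an unadjusted p under 0.05 there was 1, Stat5a, beside 11.8% of all genes in either direction. Its log2 difference was 0.52 (limma adjusted p = 0.266). The lowest was Foxa3 at -0.48 (limma adjusted p = 0.542).
Markers of hepatocytes were high in every mouse, with 9 of 10 in the table, a summed level of 2848027 to 3126419 in the Low AA mice and 2638744 to 3039489 in the Control mice, and 0 that passed in limma or had an unadjusted p under 0.05. For the Kupffer cell and macrophage markers, 9 of 9 in the table, the sums were 9089 to 12722 in Low AA and 8359 to 13005 in Control mice, the order in which the next ranges are given too. Those for the 8 of 8 endothelial markers were 8493 to 9107 and 7011 to 9784, and those for the 9 of 9 stellate cell markers 9168 to 11463 and 8782 to 11367. All of these sums overlapped between diets. At an unadjusted p under 0.05, Emr1, the macrophage marker F4/80, was higher and Col1a1, a collagen of activated stellate cells, lower. Of all genes, 5.13% were higher and 6.70% lower at that threshold. All 9 Kupffer cell and macrophage markers had a log2 difference above 0, with a median of 0.22, beside 5955 of the 11784 genes above 0. The 4 of 6 cholangiocyte markers in the table summed to 826 to 1316 in the Low AA mice and 1124 to 2265 in the Control mice. All 4 had a log2 difference below 0, beside 49.5% of all genes, with a median of -0.62. Spp1 made up most of the sum, at 755 to 1199 in Low AA and 929 to 2075 in Control mice. Sox9 and Krt19, 2 of the 4, were low and overlapped between diets. Sox9 had 20 to 69 in Low AA and 63 to 124 in Control mice, and Krt19 16 to 30 and 27 to 70. Both were lower at an unadjusted p under 0.05, beside 6.70% of all genes. The red cell markers, 6 of 7, summed to 10093 to 14931 and 7768 to 30071, with F2212 the highest, Hbb-b2 at 0 in F129 and 3 genes lower at an unadjusted p under 0.05, beside the same share. The neutrophil markers, 1 of 7, summed to 20 to 51 and 19 to 130, the lymphocyte markers, 2 of 8, to 53 to 103 and 36 to 204, and the adipocyte markers, 1 of 5, to 209 to 1050 and 147 to 743. Of all these marker lists 0 genes passed in limma, beside 0.399% of all genes. Their part in the values of C9 and C6 was not tested.

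The genes whose log2 values followed C9 most closely over the 8 mice were Loxl1 (Pearson r = 0.97), Serpina1e (0.97), 2010315B03Rik (0.97), Clic5 (0.96) and Acox3 (0.96). C9 was lower on the Low AA diet, so genes that also differed between diets come first in such an order. Serpina1e, an alpha-1 antitrypsin gene, had 119919, 102253, 146819 and 97955 scaled read counts in Control mice F129, F2212, F7111 and F2110 and 40367, 24869, 48443 and 50875 in Low AA mice H1126, H828, H817 and H1315. It belongs to a family of near-identical genes, so its value is uncertain. C6 was 60th among the other genes in this order, with r = 0.90, and C8a 137th with r = 0.86. For C6, whose order was drawn up after its values had been seen, the closest were Tram1 (r = 0.97), Cyp4a12b (0.97), Mup21 (0.96), Mup20 (0.96) and Ugt2b38 (0.96). Mup20 and Mup21 encode major urinary proteins and Cyp4a12b a fatty acid hydroxylase, and all belong to families of closely related genes.
With the diet means removed, the genes closest to C9 were Arhgap19 (r = 0.98), Aen (0.97), Acox3 (0.95), Scfd2 (0.95) and Olfml3 (0.94), and Acox3, a peroxisomal oxidase of branched-chain fatty acids, was the only gene on both lists for C9. In this order C8a stood 179th and C6 1495th for C9. For C6, C8b stood 16th in the like order.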

How the data were processed

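Liver poly(A) RNA of 4 Control and 4 Low AA mice had been sequenced as stranded libraries, and the submitters' processing notes name bcl2fastq 1.8.2, STAR 2.5.0a, RSEM 1.2.6, edgeR 3.10.5, R 3.2.1 and mm10, without roles. The authors deposited 1 table with a signal for each gene and mouse, a read count scaled between mice by a factor not given in the sources used here and rounded. It also holds their own fold change and FDR, which were not used. Values are not raw counts, so no count model was fitted and sequencing depth is known only after scaling.

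Values were taken as log2(value + 1) and compared between diets by limma (version 3.58.1, R 4.3.3), moderated along a trend in mean level, and p-values were adjusted after Benjamini and Hochberg across the 11784 genes. Requiring 1 or more in 4 or more mice removed 0 genes. Fold changes on this scale understate changes of low genes. The fit was tested on simulated data. The members and lists were chosen with earlier results of these data known. Named genes were the members, the called and the extreme genes of each list, Saa1, Saa2 and Orm1, the 5 genes closest to C9 by either measure, and markers that stood apart, and other genes were named after their values had been seen. Some complement regulators are not reported here. Older symbols were matched through RefSeq synonyms. Start-site sequences are from RefSeq (GRCm38.p6), where 6 of 6 members matched. Mice are the replicates, and no code pairs mice across diets. Alternatives were other pseudocounts, a filter, scalings, variance models and leaving out each mouse. Figures were drawn with matplotlib 3.10.9.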

Additional observations from a re-analysis of the deposited data

Results flagged for a closer look

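A single mouse lay far from the other 3 in 5 of the 56 sets of values examined, by a rule that chance meets in about 1 in 20 independent sets. Some of these sets share values, and genes were chosen with earlier results known, so the count cannot be compared with that share. Low AA mouse H1126 lay below the other Low AA mice for C8b, with 5390 against 7265 to 7455 scaled read counts (gap over range 0.920 on the log2 scale). Low AA mouse H828 lay below the other Low AA mice for Saa1, with 68 against 549 to 770 (0.860). It was also the lowest for C9, while F129, the lowest Control mouse for Saa1, was the highest for C9. Control mouse F2212 lay above the other Control mice for Cela1 (0.945), which is the only marker in the sum of pancreas markers, so that sum stood out by the same value (0.945). Low AA mouse H1126 lay above the other Low AA mice in the summed lymphocyte markers, Cd79a and Cd79b (0.839).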

How the results depend on the processing

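The log2 differences of the 6 members moved by less than the spread between mice under each of the 15 alternatives. For those that left out a mouse this had to hold, because a single mouse can shift the difference only by a part of that spread. Nothing is therefore read from it there. With a mouse left out the log2 differences ran from -2.07 to -1.66 for C9, -1.23 to -0.92 for C6, -0.44 to -0.26 for C8a, -0.26 to 0.00 for C8b, -0.25 to -0.08 for C8g and -0.28 to -0.11 for Hc. The value of C8b, -0.16 with all mice, was 0.00 without F129, and that of Hc, -0.21 with all mice, was -0.11 without F7111. Since this contrast chose the set, the next counts of members are no support for their differences. C9 passed an adjusted p under 0.05 in 15 of the 15 alternatives and C6 in 6, so that the number of members passing, 2, was 1 with the 8000 genes of highest mean and 1 without a mean-variance trend in limma, and 1 to 2 with a mouse left out, C6 passing only without Control mouse F2212. The number of all genes passing, 47, was 19 with the 8000 genes of highest mean, 30 without a mean-variance trend and 16 to 77 with a mouse left out. It was 77 without F2212, 29 without F129, and 21, 19 and 16 without Low AA mice H1126, H828 and H817. Acute-phase genes passing were 0 to 1 with a mouse left out, and 0 of the other complement genes passed under any alternative. The cause of these changes was not tested. Other pseudocounts, scalings and robust moderation kept 44 to 47 of the 47 genes. No paired analysis was possible because no mouse code occurs on both diets. Depth limits C7 and C5ar1 most among the complement genes named, at 18 to 68 and 28 to 62 scaled read counts.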
